A study of Mus musculus with 9 samples.

Results

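The Id family of transcriptional inhibitors, Id1, Id2, Id3 and Id4, was followed in mouse primary muscle cells, from cycling myoblasts to myotubes. The members were chosen by gene symbol: a probe set had to name 1 of these genes and no other. Each of the 4 genes had 1 such probe set and passed the filter on low values, among 16582 genes tested of the 19938 named alone by a probe set. All groups shared the strain (Balb/c), the genotype (wild type) and the origin: primary myoblasts grown from skeletal muscle. The groups of 3 arrays each were cycling myoblasts at 0 days, myotubes after 2 days and myotubes after 5 days. The sample titles place the myotubes in differentiating medium, while the growth protocol gives every sample the same serum and growth factor medium, so the medium is known from the titles alone. Neither the age and number of the animals nor whether the replicates were separate cultures is given, so the p-values measure array-to-array spread alone, possibly a technical one.

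Id proteins are small helix-loop-helix proteins that lack the basic region with which basic helix-loop-helix (bHLH) factors bind DNA. They pair with the widely expressed E proteins, the products of Tcf3, Tcf4 and Tcf12, and so keep them from the myogenic bHLH factors MyoD, Myf5, myogenin and MRF4, which need an E protein partner to bind E-boxes in muscle genes. Their transcription is known as a direct target of bone morphogenetic protein (BMP) signals carried by SMAD1, SMAD5 and SMAD4, and in muscle precursors Id proteins are known for favouring proliferation over differentiation.

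The 250 bases before the annotated transcript starts are shown because Id2 and Id3 changed almost alike and Id4 differently in the results that follow. They come from RefSeq, build GRCm38.p6, and 3 of the 4 members matched. Capitals mark GGCGCC, a GC-rich SMAD element known from BMP-responsive genes, CAGCTG, an E-box that myogenic factors bind with E proteins, and CCAAT on either strand. The windows are chr12:25096093-25096342 on the minus strand for Id2, chr4:136143572-136143821 on the plus strand for Id3 and chr13:48260866-48261115 on the plus strand for Id4.
Id2: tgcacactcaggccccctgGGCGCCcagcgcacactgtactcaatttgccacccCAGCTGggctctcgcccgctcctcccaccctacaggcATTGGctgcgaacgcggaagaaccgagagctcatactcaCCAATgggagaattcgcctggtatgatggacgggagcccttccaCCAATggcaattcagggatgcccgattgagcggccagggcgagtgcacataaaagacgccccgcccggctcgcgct
Id3: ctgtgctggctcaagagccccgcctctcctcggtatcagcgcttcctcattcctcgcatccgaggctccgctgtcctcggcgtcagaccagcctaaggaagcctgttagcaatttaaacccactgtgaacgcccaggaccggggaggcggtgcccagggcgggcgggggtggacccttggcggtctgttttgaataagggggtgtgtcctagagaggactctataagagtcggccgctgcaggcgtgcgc
Id4: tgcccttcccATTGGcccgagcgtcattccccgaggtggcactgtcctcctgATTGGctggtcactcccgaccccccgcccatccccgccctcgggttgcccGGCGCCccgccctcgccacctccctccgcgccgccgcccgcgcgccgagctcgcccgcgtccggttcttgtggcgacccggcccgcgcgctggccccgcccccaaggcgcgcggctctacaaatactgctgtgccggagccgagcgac

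GGCGCC stood once in the Id2 window, 231 bases before the start, and once in the Id4 window, 148 bases before it, and 9.59% of all 32851 promoter windows of this length held it. Id2 had CAGCTG at 196 bases, its single match to the general E-box CANNTG, where 13% of windows held CAGCTG and 66.2% held CANNTG. The CCAAT motif, present in 33.8% of windows, occurred 3 times before Id2, 2 times before Id4 and 0 times before Id3. Of the motifs searched on both strands, the Id3 window matched only GTCT, the short SMAD-binding motif, 2 times, and 82.9% of windows held it; the Id2 window held it 1 time and the Id4 window 0 times. TATAAA, found in 12.4% of windows, was in none of the 3. The windows of Id2 and Id3 had the same GC content, 62.8%, that of Id4 had 75.6%, and the median window had 52.4%. A match describes the letters of the window and shows no binding. Whether these letters bear on the changes in level was not tested, and bases farther before the start were not searched.

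The arrays set the frame for these values. Levels are log2 values from RMA, which the design text says was run per replicate set. The sorted values of 2 arrays differed by at most 0.0251 on average within a time point and by at least 0.188 between time points, so each time point has its own distribution. Pairs of log2 fold changes (log2FC) below hold the deposited value first and second the value on a common scale, on which all 9 arrays were brought to 1 distribution. From the deposited values to the common scale the median log2FC of all genes moved from -0.01 to 0.09 at day 2 and from -0.37 to 0.17 at day 5, both against myoblasts, and from -0.40 to 0.05 for day 5 against day 2. The effect of the time point and of its separate normalization cannot be told apart. A gene is said to rise or fall only where limma's adjusted p was under 0.05 and the change at least 2-fold on both scales. The deposited table repeats values within a time point: 58.1% of tested genes in myoblasts, 74.9% at day 2 and 69.9% at day 5 were the same on all 3 arrays within 1e-06, and so were 6 of the 12 combinations of Id gene and time point. The spread between arrays is then too small, and the p-values with it. At any size, limma's adjusted p as deposited was under 0.05 for 47.5% of genes lower and 45.8% higher at day 2, 65.5% lower and 29.7% higher at day 5, and 77.8% lower and 16.2% higher for day 5 against day 2. The size on both scales is therefore what separates genes here.

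All 4 Id genes fell by day 2, the share of all genes that fell being 8.41%. By day 5 Id1, Id2 and Id3 were lower still, and 3 of 4 Id genes fell against myoblasts, with a share of 12.3% over all genes. Id2 and Id3 had the largest falls of the family at both times on both scales, 8.19-fold and 9.04-fold at day 2 on the common scale. Id4, the exception, was lowest at day 2 and stood higher at day 5. In the deposited values and on the common scale the arrays of any 2 time points did not overlap for any of the 4 genes. How many of all genes had non-overlapping arrays was not counted. Since values repeat within a time point, this does not set the Id genes apart. Every one of the 36 values lay above the median of its array, the lowest at the 58.2nd percentile. That median is over all 35556 probe sets, and the share of all genes above it was not counted. Id4 at day 2, 4.77 beside an array median of 4.26, is not shown to exceed background.

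Id1, a broadly expressed family member first named as an inhibitor of differentiation, had log2 levels of 8.99, 9.16 and 9.17 in cycling myoblasts, 6.88 on each day 2 array and 5.47 on each day 5 array. Its levels stepped down at each time, and only the myoblast arrays differed among themselves. The mean was 9.11 ± 0.10 in myoblasts (SD, n = 3), and the day 2 and day 5 arrays had an SD of 0. Day 2 myotubes differed from myoblasts by a log2FC of -2.22 and -2.08 (limma adjusted p = 4.73e-09 and 1.82e-10). Day 5 myotubes differed from myoblasts by -3.63 and -2.82, a 12.4-fold fall as deposited and 7.05-fold on the common scale. Between the myotube stages Id1 was lower at day 5 than at day 2 by a log2FC of -1.41 as deposited, but -0.74 on the common scale is under 2-fold, so that step is not called.

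Id2, which besides E proteins is known to bind the retinoblastoma family, had log2 levels of 10.62, 10.59 and 10.62 in cycling myoblasts. It had 7.44, 7.44 and 7.49 at day 2 and 6.14 on each day 5 array. The myoblast arrays were high, the day 2 arrays far below them, and the day 5 arrays lower again, with SDs over 3 arrays of 0.016, 0.027 and 0. The day 2 fall was a log2FC of -3.15 and -3.03 (limma adjusted p = 4.24e-13 and 8.77e-12), and the day 5 fall -4.46 and -3.61. On the common scale 0.838% of all genes had a lower log2FC than Id2 at day 2 and 0.754% at day 5. Day 5 against day 2 gave -1.32 and -0.58, which did not reach 2-fold on the common scale.

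Id3, a member often expressed together with Id1, had log2 levels of 9.71, 9.70 and 9.63 in cycling myoblasts, 6.27, 6.27 and 6.38 at day 2, and 5.25 on each day 5 array. Its day 2 fall was the largest of the family, with a log2FC of -3.37 and -3.18 (limma adjusted p = 9.33e-11 and 6.66e-11). At day 5 the fall was -4.43 and -3.62, where 0.736% of all genes had a lower log2FC on the common scale. The step between the myotube stages, day 5 against day 2, was the smallest of the 3 genes that stepped down, -1.06 and -0.45, and is not called. Of the log2 difference between day 5 and myoblasts, 76.1% was present by day 2 for Id3 as deposited, 70.5% for Id2 and 61.2% for Id1. On the common scale these shares were 87.7%, 84.0% and 73.8%, in the same order.

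Id4, known best from the nervous system and able to oppose the other Id proteins in some settings, had log2 levels of 6.14, 6.25 and 6.25 in cycling myoblasts, 4.77 on each day 2 array and 4.96 on each day 5 array. Day 2 was thus its low point. It fell at day 2 by a log2FC of -1.44 and -1.07 (limma adjusted p = 3.81e-09 and 1.11e-09), close to the 2-fold limit on the common scale, and did not pass on both scales when limma's treat tested it against a 2-fold change. At day 5 it differed from myoblasts by -1.25 and -0.36 and is not called. Day 5 lay above day 2 by 0.19 as deposited and 0.70 on the common scale, with non-overlapping arrays but under 2-fold on each. Id4 was therefore the single member whose log2FC between the myotube stages was positive, and its log2FC with the arrays shifted to 1 median, 0.46, was positive too. None of the 4 Id genes rose or fell between day 2 and day 5, where 3.67% of all genes fell and 0.766% rose.

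**Figure D1:**
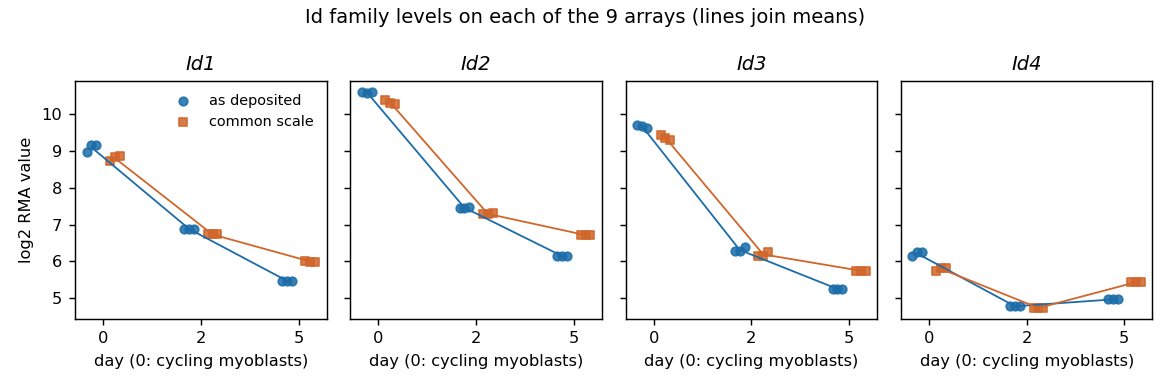
Log2 RMA values (y axis) of each Id gene on the 9 arrays by day (x axis; 0 is cycling myoblasts), as deposited (circles) and on the common scale (squares), lines joining the means of 3 arrays. Id1, Id2 and Id3 step down at each time, and Id4 is lowest at day 2; levels of different genes are not comparable.

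Exact permutation tests of the 12 differences between time points, two-sided with 3 against 3 arrays, each gave p = 0.1, the smallest this design allows, and 0.1 after Benjamini-Hochberg adjustment over the 12. The position on the array, given as a percentile, was lower in myotubes than in myoblasts. The mean position of Id3 was the 74.5th percentile at day 2 against the 96.0th in myoblasts. That of Id1 was the 79.7th against the 94.0th, and that of Id2 the 84.6th against the 98.2nd. At day 5 the positions were the 69.8th percentile for Id3, the 72.5th for Id1 and the 79.6th for Id2. For Id4 the mean position was the 70.4th percentile in myoblasts, the 58.2nd at day 2 and the 66.6th at day 5. From high to low, Id1, Id2 and Id3 thus ran myoblasts, day 2, day 5, and Id4 ran myoblasts, day 5, day 2, on percentiles as on both log2 scales. The common scale is made from the ranks on each array. Percentiles and common scale therefore share their order by construction, and the percentiles are no separate support for it.

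**Figure D2:**
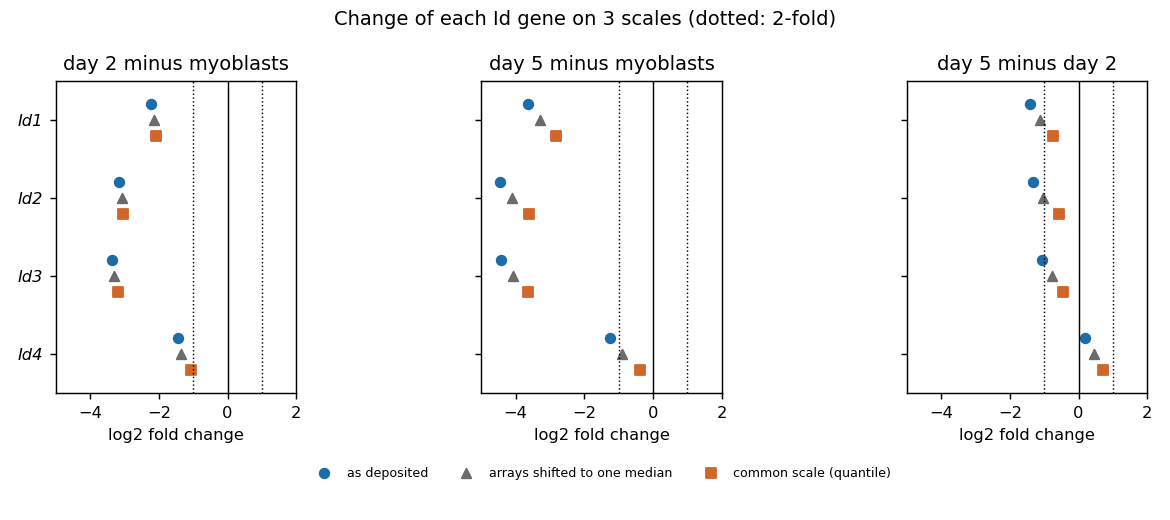
Log2 fold change (x axis) of each Id gene (y axis) for the 3 comparisons, as deposited (circles), with arrays shifted to 1 median (triangles) and on the common scale (squares); dotted lines mark 2-fold. At day 2 all symbols lie left of the 2-fold line, whereas between day 5 and day 2 only some do, and those of Id4 lie right of 0.

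**Figure D3:**
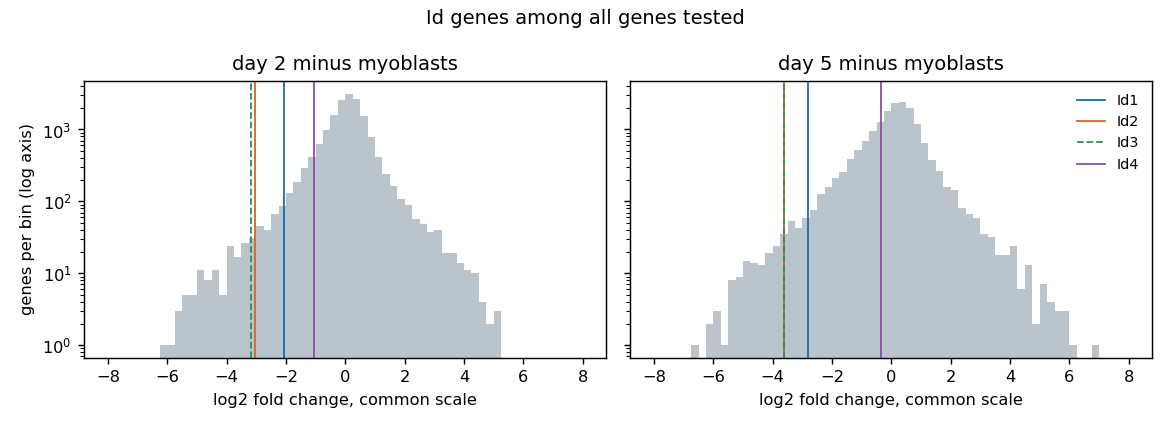
Number of genes (y axis, log) by log2 fold change on the common scale (x axis) for all 16582 genes tested, with a vertical line for each Id gene. Id2 and Id3 lie in the far left tail in both panels, Id1 next to them, and Id4 near the bulk of genes at day 5.

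The members were also compared with each other on the same array, where a shift of a whole array cancels. At day 5 against myoblasts the log2 ratio of Id2 to Id4 changed by -3.22 as deposited and -3.25 on the common scale, that of Id3 to Id4 by -3.18 as deposited and that of Id1 to Id4 by -2.39. Between Id2 and Id3 the changes were far smaller. The change of Id2 over Id3 was 0.22 at day 2 and -0.03 at day 5, both against myoblasts, and the day 5 arrays overlapped the myoblast arrays in this ratio (exact permutation p = 0.4, two-sided, n = 3 each; adjusted over 78 such comparisons 0.405). On the common scale the day 5 value was 0.01, so it has no settled direction. Id1 was lowered less than Id3 at day 2, with a change of the log2 ratio of 1.15 against myoblasts, and the arrays of the 2 times did not overlap (exact permutation p = 0.1, adjusted 0.104).

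Centred on their own means, the profiles of Id2 and Id3 differed by 0.068 log2 units (root mean square over 9 arrays, common scale). Among all genes tested Id3 was the 4th nearest to Id2, and Id2 the 2nd nearest to Id3. The other genes nearest to Id3 were Ckap2, a cytoskeleton-associated gene active in mitosis, Cdc20, an activator of the anaphase-promoting complex, the secreted glycoprotein gene Reln, and the kinetochore gene Cenpf, with distances of 0.057 to 0.084. Nearest to Id2 were Avpr1a, a vasopressin receptor, Mis18a, needed to load centromeric histone, the connexin gene Gjc1 and, after Id3, Iqsec3. Id1 was nearest to Slc10a7, Abcb1b, Slc14a1, Ctxn1 and Rps6ka6 (0.051 to 0.072), and Id4 to Gcnt3, Rpa2, Hdac6, Pcbp3 and 0610010K14Rik (0.039 to 0.050). Pearson r of these pairs was above 0.99, which says little, since the 9 arrays form 3 levels. With the deposited values, or with Pearson r as the measure, at most 1 of the 5 nearest genes of any member was again among its 5.

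Among the E protein genes, partners that Id proteins hold, Tcf3, which encodes E12 and E47, fell and Tcf4 did not, while Tcf12, which encodes HEB, fell at day 5. At day 2, 1 of 3 fell and 0 rose, and at day 5, 2 of 3 fell and 0 rose, where 8.41% and 12.3% of all genes fell. The log2FC of Tcf3 was -1.45 and -1.26 at day 2, and -2.07 and -1.16 at day 5. Tcf12 had -0.93 and -0.80 at day 2, short of 2-fold, and -2.65 and -1.78 at day 5. Tcf4 stood at 8.23 ± 0.017 at day 2 and 7.51 ± 0.012 in myoblasts (SD, n = 3), a log2FC of 0.72 and 0.93. At day 5 the log2FC of Tcf4 was -0.91 in the deposited values but 0.04 on the common scale, so its direction depends on the scale.

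Of the myogenic bHLH genes, 2 of 4 rose and 1 fell at day 2, where 6.04% of all genes rose, and 1 rose and 2 fell at day 5, where 4.44% rose. Myogenin, Myog, the factor of terminal differentiation, rose at day 2 (log2FC 1.87 and 2.04), with 0.51 and 1.25 at day 5. Myf6, which encodes MRF4, rose at both times (3.04 and 3.09, then 4.48 and 5.16). Myf5, an early determination factor, fell at both times (-1.55 and -1.43, then -2.39 and -1.55). Myod1, the determination factor expressed in myoblasts, had -0.96 and -0.93 at day 2 and fell at day 5 (-2.04 and -1.43).

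Set against these genes on the same array, Id1, Id2 and Id3 were lower relative to each of Tcf3, Tcf4, Tcf12, Myod1 and Myog at day 2 and day 5 than in myoblasts, in 30 of 30 comparisons. On the common scale 2.18% of all genes had a lower log2FC than Id1 at day 2 and 1.71% at day 5. For Id2 and Id3 the shares were smaller still. Their ratio to nearly any other gene was thus lower too, so the count does not single out these partners. The change of the log2 ratio lay between -0.77, for Id1 over Tcf3 at day 2, and -5.24, for Id3 over Myog at day 2. Against Myod1, whose protein Id proteins hinder through its E protein partner, the ratio changed by -1.27 for Id1, -2.19 for Id2 and -2.41 for Id3 at day 2. At day 5 it changed by -1.59, -2.42 and -2.39. Id4 went another way at day 5: its log2 ratio to Tcf12 was 1.40 above that in myoblasts, to Tcf3 0.82 and to Myod1 0.80. Relative to Myog it was lower at both times (-3.30 at day 2 and -1.76 at day 5), as it was relative to Tcf4 (-2.16 and -0.34), and relative to Tcf3 at day 2 the ratio changed by 0.02 with overlapping arrays. Every comparison whose arrays did not overlap had an exact permutation p = 0.1, two-sided, the smallest that 3 against 3 arrays allow, and 3 of the 78 had arrays that overlapped. Between day 2 and day 5 the ratios did not all go 1 way. For Id1, Id2 and Id3 they were higher at day 5 over Tcf4 (0.22, 0.32 and 0.57) and Tcf12 (0.31, 0.40 and 0.66). They were lower over Tcf3 (-0.80, -0.71 and -0.45). The signs were mixed over Myod1 (-0.33, -0.23 and 0.02) and Myog (-0.05, 0.04 and 0.30). A ratio on an array shows unequal change and sets no level against another.

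**Figure D4:**
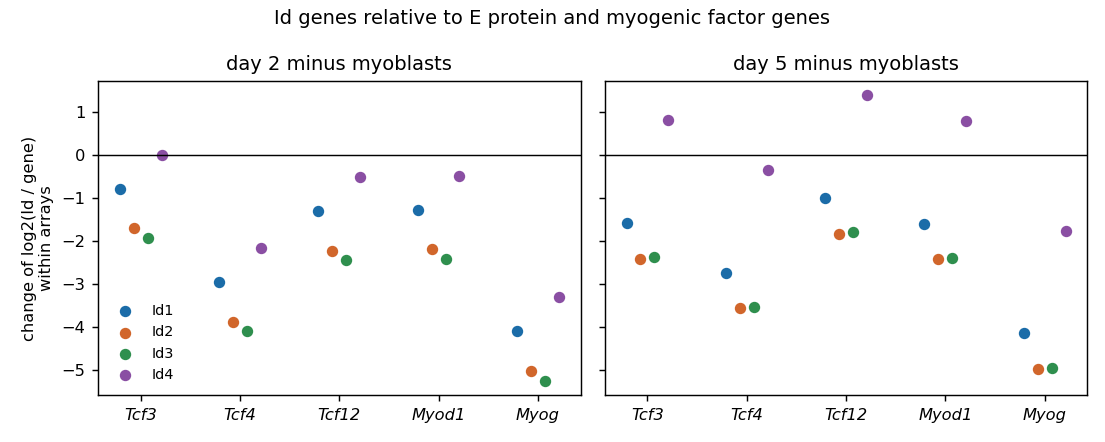
Change of the log2 ratio of each Id gene to Tcf3, Tcf4, Tcf12, Myod1 and Myog on the same array (y axis; x axis gives the second gene), for day 2 and day 5 against cycling myoblasts, means of 3 arrays each. Id1, Id2 and Id3 lie below 0 throughout, whereas Id4 lies above 0 for Tcf3, Tcf12 and Myod1 at day 5.

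Genes of the BMP pathway, which is known to drive Id transcription, changed in both directions. Of 42 tested ligands, receptors, SMADs and antagonists, 5 rose and 2 fell at day 2, where 6.04% of all genes rose and 8.41% fell. At day 5, 3 rose and 5 fell, where 4.44% rose and 12.3% fell. Among 13 ligands, Gdf5, a ligand of joint and tendon development, rose at day 2 (log2FC 1.36 and 1.32; its level in myoblasts, 3.49, was under the array median) and at day 5 (1.64 and 2.12). The 12 other ligands were not called at either time. Under the array median on all 3 arrays lay 11 of the 13 in myoblasts, 9 at day 2 and 7 at day 5. On all 9 arrays 6 of the 13 lay under it, and Bmp7 and Bmp8b were never above it, so these levels are not shown to exceed background. Among 11 receptors and co-receptors the type I and type II receptor genes Bmpr1a (0.08 and 0.26) and Bmpr2 (-0.11 and 0.10) were close to 0 at day 2. At day 5 Bmpr1a had -1.47 and -0.55. The single gene called in that list was Hjv, hemojuvelin, a BMP co-receptor of liver and skeletal muscle. It had 9.72 ± 0 at day 2 and 5.74 ± 0.15 in myoblasts (SD, n = 3), a log2FC of 3.97 and 4.23, with 2.98 and 3.85 at day 5.

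The SMAD genes gave no call at day 2. At day 5 Smad5, a carrier of the BMP signal, fell (-2.31 and -1.45), and Smad1 (-1.73 and -0.78), Smad4 (-1.22 and -0.40) and Smad9 (-0.85 and -0.40) did not reach 2-fold on both scales. Of 14 tested antagonists 3 rose and 2 fell at day 2, where 6.04% of all genes rose and 8.41% fell. At day 5, 1 rose and 4 fell, where 4.44% rose and 12.3% fell. Those that rose at day 2 were Fst, follistatin (2.31 and 2.54), Grem1, gremlin (1.46 and 1.68), and Chrd, chordin (1.16 and 1.22; its level in myoblasts, 4.15, was under the array median). Other secreted binders had negative values at day 2, among them Sostdc1 (-0.99 and -1.07), which was under the array median on all 9 arrays, and Nbl1 (-1.04 and -0.84), neither called. Fst rose at day 5 too (1.20 and 2.12), whereas Grem1 fell between day 2 and day 5 (-2.41 and -1.87). Nog, noggin, had 0.77 and 1.74 at day 5 and is not called. Smad7, an intracellular inhibitor that BMP and TGF-beta signals induce, fell at both times (-1.79 and -1.41, then -2.43 and -1.62), as did Twsg1, a chordin partner (-1.88 and -1.73, then -1.84 and -1.01). Nbl1, a secreted BMP binder, fell at day 5 (-1.96 and -1.05), and so did Smurf2, a ubiquitin ligase for SMADs (-2.05 and -1.14).

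Of 8 other genes known as BMP-SMAD targets, 2 fell at each time, Smad7 and Atoh8, where 8.41% of all genes fell at day 2 and 12.3% at day 5. Atoh8, a bHLH gene, had 5.61 ± 0 at day 2 and 8.27 ± 0 in myoblasts (SD, n = 3), a log2FC of -2.66 and -2.40, and -3.62 and -2.88 at day 5. Smad6, the BMP-specific inhibitory SMAD, had -1.28 and -0.90 at day 2 and was not called. The remaining target genes, Msx1, Msx2, Hey1, Bambi and Smad9, had a log2FC between -0.54 and 0.19 at day 2 on the common scale. The list median was -0.66 and -0.42 at day 2, beside -0.01 and 0.09 over all genes, and the list shares Smad6, Smad7, Smad9 and Bambi with the lists above.

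Other genes known to act on Id transcription or on Id proteins were described in the same way. Myc, whose family drives Id2 in some tumours, fell at both times (-1.39 and -1.22, then -2.92 and -2.07). Egr1, an immediate early factor that acts on the mouse Id1 promoter, had 0.88 and 1.13 at day 2, not called, and fell between day 2 and day 5 (-2.32 and -1.67). Mycn had -0.22 and -0.19 at day 2. Usp1, which in human cells removes ubiquitin from ID proteins and so stabilises them, fell at day 2 (-1.97 and -1.66) and day 5 (-2.87 and -2.04). Its cofactor gene Wdr48 (-0.78 and -0.60) and Fzr1, which encodes the Cdh1 subunit that marks Id2 for degradation (-0.45 and -0.34), were not called at day 2 or at day 5.

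Among 6 genes of other proteins that Id proteins bind, 1 rose and 2 fell at day 2, where 6.04% of all genes rose and 8.41% fell, and 2 fell at day 5, where 12.3% fell. Rb1, the retinoblastoma gene, rose at day 2 (1.13 and 1.38) and fell between day 2 and day 5 (-1.87 and -1.14). At day 5 against myoblasts Rb1 had -0.74 and 0.24, so its direction depends on the scale. Its relative Rbl1, expressed in cycling cells, fell at both times (-2.81 and -2.51, then -3.36 and -2.60), as did the Ets factor gene Elk3 (-2.06 and -1.77, then -3.27 and -2.53). Of the CDK inhibitor genes that Id proteins hold down, Cdkn2a fell at day 2 (-1.31 and -1.04), Cdkn2b had 0.48 and 0.71, and Cdkn1a had no probe set naming it alone. At day 5 against myoblasts neither Cdkn2a (-1.57 and -0.62) nor Cdkn2b (0.57 and 1.47) was called. Among 9 other HLH inhibitors, Bhlhe40 rose at both times (3.33 and 3.20, then 3.21 and 3.77; its level in myoblasts, 3.60, was under the array median). Hes1, a Notch target, had -1.05 and -0.87 at day 2 and fell at day 5 (-2.12 and -1.22), and Heyl fell between day 2 and day 5 (-1.44 and -1.10). The other genes of that list, Hey1, Twist1, Twist2, Bhlhe41, Msc and Mdfi, were not called in any comparison.

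**Figure D5:**
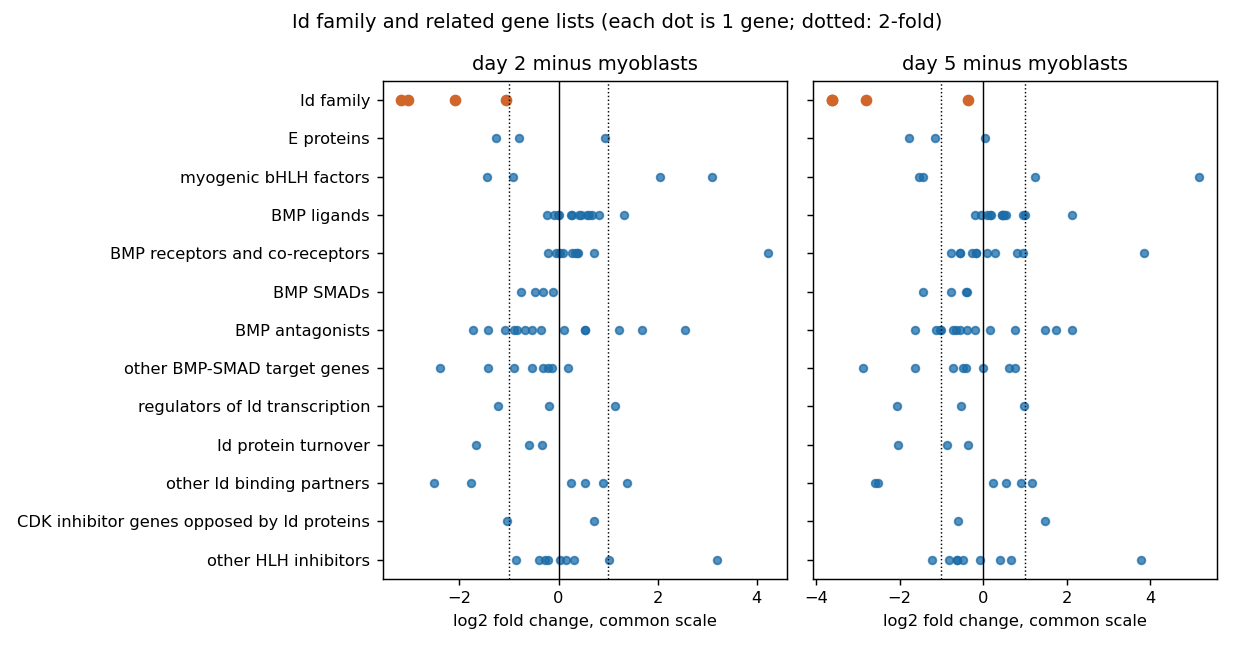
Log2 fold change on the common scale (x axis) of the Id genes (top row) and of each tested gene of the related lists (y axis), day 2 and day 5 against cycling myoblasts; each dot is 1 gene and dotted lines mark 2-fold. The Id genes lie left of the 2-fold line at day 2, while most BMP ligands, receptors and SMADs lie between the dotted lines.

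Markers of the culture changed in both directions between the time points, and their summed log2 levels are as deposited. All 4 measured proliferation markers fell at both times, with summed log2 levels of 36.1 on the myoblast arrays, 15.8 on each day 2 array and 14.6 on each day 5 array, and Mki67 and Top2a were under the array median at day 2 and day 5. All 6 myotube markers rose at day 2 and 5 at day 5, with sums of 50.9 to 52.3 in myoblasts, 69.6 at day 2 and 66.0 to 66.3 at day 5. All 6 myoblast markers stayed above the array median, with sums of 56.8 to 57.3 in myoblasts, 54.5 to 54.6 at day 2 and 48.7 to 48.8 at day 5. Of these, 1 rose and 2 fell at day 2, and 1 rose and 4 fell at day 5. Over all genes 6.04% rose and 8.41% fell at day 2, and 4.44% rose and 12.3% fell at day 5.

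Markers of other cell types were mostly low, but not all. Acta2, a smooth muscle marker, had 11.03 in myoblasts, 11.44 at day 2 and 9.67 at day 5. Thy1, Col1a1 and Plin1 also lay above the array median on all 9 arrays. All 5 endothelial markers were under the array median on every array, with sums of 14.9 to 15.1 in myoblasts, 16.0 to 16.1 at day 2 and 16.2 at day 5. Of 7 measured fibroblast markers 5 in myoblasts, 5 at day 2 and 4 at day 5 were under it, with sums of 25.37 in myoblasts, 25.21 at day 2 and 25.02 to 25.61 at day 5, and none of the 4 that passed the filter was called. The median log2FC of these 4 at day 5 was -0.14 in the deposited values but 0.47 on the common scale, so its direction depends on the scale. Of 5 immune markers 4 in myoblasts, 4 at day 2 and 5 at day 5 were under it, with sums of 16.6 in myoblasts, 18.2 at day 2 and 16.8 at day 5. Itgam rose at day 2 (1.96 and 1.86), with 4.69 at day 2 and, under the 30th percentile of the arrays, 2.73 in myoblasts, while Cd68 (-0.83 and -0.68) and Cd14 (-0.31 and -0.42) had negative values and were not called. Of 4 pericyte and smooth muscle markers 2 were under the array median at each time point. Rgs5, at 6.65 in myoblasts, fell at both times (-4.02 and -3.73, then -3.99 and -3.53). The list had sums of 26.03 to 26.22 in myoblasts, 22.4 to 22.5 at day 2 and 20.8 at day 5. Acta2 had 0.41 and 0.52 at day 2, not called, and fell between day 2 and day 5 (-1.77 and -1.20), Cspg4 had 0.25 and 0.29 at day 2 and 0.50 and 1.00 at day 5, and Myh11 had -0.30 and -0.23 at day 2; these last 2 were not called. The Schwann markers, 2 of 4 measured, had sums of 6.70 in myoblasts, 8.27 at day 2 and 7.31 at day 5, and S100b passed the call at day 2 (1.43 and 1.28) with levels of 3.90 at day 2 and 2.46 in myoblasts, both under the array median and so not shown to exceed background. The 3 adipocyte markers had sums of 9.37 to 9.44 in myoblasts, 10.4 at day 2 and 9.01 to 9.18 at day 5. The part of these marker changes in the Id values was not tested, and in bulk RNA fewer cells of a type and less RNA per cell cannot be told apart.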

How the data were processed

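Biotin-labelled total RNA of 9 samples was measured on Affymetrix arrays, per the labels. The deposited values are log2 expression values that the authors made with RMA for each replicate set, per the submitters' processing notes and the design text (version not given in the sources used here). Of 35556 probe sets in the table, 21789 had 1 gene in the platform annotation. Depth has no meaning for arrays, and their number limits the precision.

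For this report each gene was represented by its probe set of highest mean, and tested where 3 or more arrays had it over their 30th percentile. In R 4.3.3, limma 3.58.1 (lmFit, eBayes) estimated a mean for each time point from the 9 arrays together, adjusted by Benjamini-Hochberg over 16582 genes. The fit was tested on simulated data in which every gene varied between arrays. That test does not cover the repeated values. The common scale is a quantile normalization of all 9 arrays. Named genes are the 4 members, the 5 genes nearest to each by root mean square difference of centred profiles, and from each list those called (up to 6 per comparison, largest first), with every gene of lists of 4 or fewer and some others for contrast, chosen after their values were seen. Lists held 77 distinct genes, 75 of them tested; the older symbol Hfe2 was read as Hjv through the RefSeq table. The members and lists were chosen with earlier results of these data known. Alternatives were the scale, filter, probe set rule, variance model, arrays in the fit, a replicate block and leaving out each array.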

Additional observations from a re-analysis of the deposited data

How the results depend on the processing

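The falls of Id1, Id2 and Id3 at day 2 and day 5 against myoblasts kept their direction and call under every alternative run, and 233 of 240 alternative values of single Id genes kept both. Many of these settings could not move a log2FC. Each Id gene had 1 probe set, and the filter, the variance model and the replicate block leave the log2FC as it is. Leaving out an array whose value repeats does not move it either. The count is therefore no measure of robustness. The calls that changed were of Id4 and of day 5 against day 2. Limma's treat, which tests against a 2-fold change and had to pass on both scales, ended the day 2 call of Id4 (log2FC -1.44). The deposited scale alone, chosen after seeing the data, added a fall of Id4 at day 5 (-1.25) and falls between day 2 and day 5 for Id1 (-1.41), Id2 (-1.32) and Id3 (-1.06), and arrays shifted to 1 median added the last step for Id1 (-1.13) and Id2 (-1.04). Treat kept the log2FC and both scales and changed the limit tested, whereas the 2 other settings judged the call on 1 scale alone. Without each array in turn the day 2 log2FC lay between -2.28 and -2.19 for Id1, -3.16 and -3.14 for Id2, -3.41 and -3.35 for Id3, and -1.47 and -1.42 for Id4. At day 5 against myoblasts the ranges were -3.69 to -3.60, -4.47 to -4.46, -4.46 to -4.41 and -1.28 to -1.23 in the same order.

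Counts over all genes depended on the scale. At day 5 against myoblasts 736 genes rose on both scales, 1960 on the common scale alone and 1413 with arrays shifted to 1 median; 2040 fell on both, 3336 with the shift and 4840 as deposited alone. At day 5 against day 2, 127 rose on both, 461 on the common scale and 234 with the shift, and 609 fell on both, 1287 with the shift and 2548 as deposited. Among list genes at day 5 against myoblasts 5 rose on both scales, 10 on the common scale and 8 with the shift, and 15 fell on both, 26 with the shift and 30 as deposited. At day 5 against day 2, 1 list gene rose on both, 4 on the common scale and 2 with the shift, and 4 fell on both, 15 with the shift and 23 as deposited. The ratio of Id1 to Myog between day 2 and day 5 changed by -0.05 as deposited and 0.062 on the common scale, and that of Id2 to Id3 at day 5 against myoblasts by -0.03 and 0.0099; the cause was not tested. Of the 5 genes nearest to Id4, 1 stayed among its 5 with the deposited values and 0 with Pearson r, and for the other members 0 with each.

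The replicate numbers share only a number: deviations of same-numbered arrays correlated between -0.04 and 0.11, and in 8 of 18 cases an array correlated best with its own number. With the replicate block the log2FC of the Id genes were the same, with limma adjusted p = 8.56e-07 for Id1 at day 2, and 1394 genes fell and 1002 rose at day 2, as without it. Without a background measure, a low level may be background.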
